A study of Mus musculus with 10 samples.

Results

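The genes described here are 10 targets and partners of the transcription factor ATF4 that serve amino acid supply and the response to its shortage. They are Atf4 and Ddit3, which encode transcription factors, Trib3 and Chac1, which are induced under stress, the biosynthetic enzymes Asns, Psat1 and Phgdh, and the transporter chains Slc7a11, Slc7a5 and Slc3a2. Members were all probes that the array platform's annotation assigns to these symbols. The annotation assigned 19 of the 46237 probes to 9 of the 10 genes, out of 21946 named genes in all. Slc7a5 was not analysed here.

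Splenic monocytes were profiled on Illumina mouse arrays in 2 groups of 5 samples, all from C57BL/6 mice aged 3 months. TCL1-AT samples were taken 6 weeks after the mice were transplanted with CLL cells (chronic lymphocytic leukaemia, a B cell cancer) that had arisen in Eµ-TCL1 mice. The animals differ in carrying this leukaemia, which is driven by a TCL1 transgene in the transplanted B cells and not in the monocytes measured, and effects of the leukaemia and of transplantation itself cannot be told apart. WT samples came from control mice labelled as having had no intervention. All cells were sorted as Lin- CD11b+ F4/80int CD11clow-int with low MHC class II. The titles call each WT sample a pool, without the number of mice, and do not say whether a TCL1-AT sample is 1 mouse, so p-values measure the spread between these samples, which may be partly technical.

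ATF4 is made when the translation factor eIF2alpha is phosphorylated by one of a family of kinases that sense lack of amino acids, unfolded protein, viral RNA or lack of heme. Its own messenger RNA carries upstream reading frames, so that its protein is governed to a large part by translation, which arrays of RNA do not measure. ATF4 pairs with C/EBP proteins and binds composite elements in genes of amino acid synthesis and uptake, and sustained activity also raises the death-linked factor CHOP, the product of Ddit3. In macrophages the pathway is known for supporting cytokine production and for adaptation to poor nutrient supply.

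The C/EBP-ATF composite element was searched as TGATGNAA on both strands in RefSeq promoter windows of build GRCm38.p6, which run from 250 bases before to 50 after a gene's start. Promoters were given for 9 members, and 4 of these, Asns, Slc7a11, Trib3 and Chac1, held at least 1 match, where 4.51% of 27025 genes did. The letters of the ATF/CRE site, TGACGTCA (2.03% of genes), and of the E-box, CACGTG (8.09%), were found in none of the 9. A match is only a run of letters and no measure of binding, and the absence of one says only that these letters are not in the window. The matches are shown because this element is the one ATF4 is known to bind, and they did not go with the calls: of the 4 genes Asns was called and Slc7a11, Trib3 and Chac1 were not. Each line is 5′ to 3′ on the gene's strand, with the matching letters in capitals. The Asns line gives the 250 bases before the start (chr6:7693210-7693459, minus strand), with its match at bases -23 to -16. The Slc7a11 lines show both matches, at -66 to -59 and -47 to -40 (chr3:50443661-50443690 and chr3:50443642-50443671, minus strand). The Trib3 line lies just after the start (chr2:152344028-152344057, minus strand) and the Chac1 line before it (chr2:119351038-119351067, plus strand).
Asns: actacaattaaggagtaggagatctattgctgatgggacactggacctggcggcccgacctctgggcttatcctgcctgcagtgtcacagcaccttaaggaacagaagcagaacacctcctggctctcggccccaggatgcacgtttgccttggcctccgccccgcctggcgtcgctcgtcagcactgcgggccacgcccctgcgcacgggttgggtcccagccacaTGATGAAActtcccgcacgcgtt
Slc7a11, first match: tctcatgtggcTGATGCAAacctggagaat
Slc7a11, second match: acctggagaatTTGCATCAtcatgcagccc
Trib3: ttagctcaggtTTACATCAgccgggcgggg
Chac1: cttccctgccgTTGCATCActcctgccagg

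The first of the promoter windows listed for Psat1 is shown because Psat1 is the other called member, again as the 250 bases before the start (chr19:15925060-15925309, minus strand), with no capitals because it holds no match.
Psat1: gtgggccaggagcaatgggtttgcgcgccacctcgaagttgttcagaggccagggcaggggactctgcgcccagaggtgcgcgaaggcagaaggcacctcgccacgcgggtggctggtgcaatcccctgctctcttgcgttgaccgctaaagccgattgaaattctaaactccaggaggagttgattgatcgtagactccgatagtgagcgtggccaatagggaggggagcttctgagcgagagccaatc

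All levels are the deposited log2 signals, quantile-normalized between arrays, and a difference is TCL1-AT minus WT on that scale with its standard error (SE) from limma. A probe counted as detected on an array at a detection p under 0.05 and was tested if detected on at least 5 of the 10 arrays. A call is a Benjamini-Hochberg adjusted p under 0.05 over all 20241 tested probes, and a gene is counted by its brightest tested probe. Levels of different probes are not comparable, because each probe has its own brightness. The arrays detected 42.9% to 45.3% of probes. Median raw signal was higher in TCL1-AT (90.3 to 93.4 intensity units) than in WT (80.4 to 92.1, exact permutation p = 0.0317, 2-sided), with WT 1 alone among WT arrays in the TCL1-AT range. For that reason calls are also given with raw signal as a covariate where it ends them, for the members and list genes that were recomputed. Because raw signal largely follows the groups, this covariate widens the SE (for Psat1 from 0.16 to 0.24). A call can thus be lost with little change in the difference. The 9 tested monocyte identity markers were detected on all 10 arrays. Their array mean, over the same probes in both groups, was 10.88 to 11.11 in TCL1-AT and 10.97 to 11.14 in WT. However, 3 were called higher and 2 lower. Lyz2, 1 of the 3 (0.29), had 2 other tested probes, both called lower (-1.71 and -0.73). Ccr2 was annotated but did not pass the detection filter. In bulk samples like these, fewer cells of a type and less RNA per cell cannot be told apart.

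Of the 19 member probes 12 were tested, which covered 9 genes, and 2 probes were not detected on any array. One gene, Asns, was called higher in monocytes of TCL1-AT mice, 1 gene, Psat1, was called lower, and 7 were not called. Among all 11506 named genes tested, 12.7% were called higher and 16.5% lower, so the members' count was near that of named genes as a whole. The median log2 difference of the 9 members was 0.18, against 0.01 over all named genes, with a range from -0.64 to 1.23. Asns and Psat1 thus differed in opposite directions, and the stress-linked targets Ddit3, Trib3 and Chac1 were not called.

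**Figure D1:**
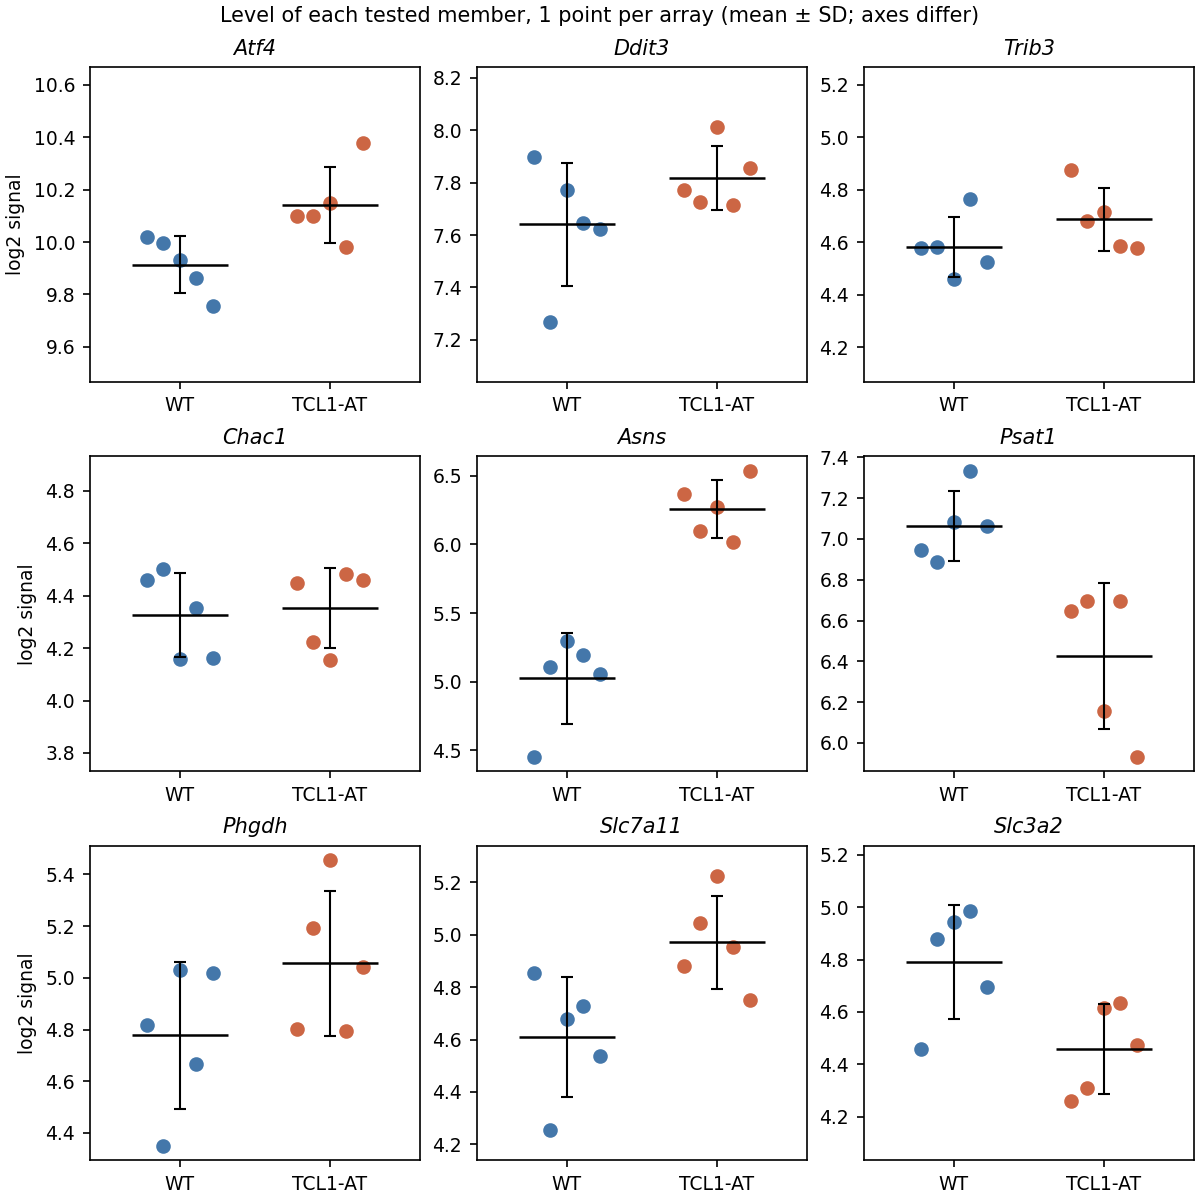
Normalized log2 signal of the brightest tested probe of each of the 9 tested members (vertical axes, which differ between panels), with 1 point per array and a bar and whiskers for the mean and SD of 5 arrays. The Asns groups are apart with TCL1-AT above, the Psat1 groups are apart with TCL1-AT below, and the groups of the other 7 members overlap.

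Atf4 itself was detected on all 10 arrays, and its 2 probes agree in sign but not in call. Its brightest probe (ILMN_2642681) read 10.10, 10.10, 10.15, 9.98 and 10.38 on TCL1-AT arrays 1 to 5 and 10.02, 10.00, 9.93, 9.86 and 9.75 on WT arrays 1 to 5. TCL1-AT 4 lay below WT 1 and WT 2, so the groups overlapped. The difference was 0.23 (SE 0.10, 95% interval 0.01 to 0.45, limma adjusted p = 0.117) and was not called. A second Atf4 probe (ILMN_1223734) read 8.81, 8.65, 8.71, 8.93 and 8.86 in TCL1-AT and 8.03, 8.70, 8.61, 8.05 and 8.33 in WT. Here WT 1 and WT 4 were the lowest arrays and WT 2 reached into the TCL1-AT range. This probe was called higher by 0.45 (SE 0.14, adjusted p = 0.0289), where 12.1% of all tested probes were called higher. The call was lost without any 1 of TCL1-AT 1, 4 or 5 or WT 1, 4 or 5 (0.37 to 0.45, adjusted p up to 0.0748) and with median scaling (0.36, adjusted p = 0.156). The mean of both probes differed by 0.34 (adjusted p = 0.0237).

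Ddit3, which encodes the stress factor CHOP, was detected on all 10 arrays and was not called. Its brightest probe read 7.77, 7.73, 8.01, 7.72 and 7.86 in TCL1-AT and 7.90, 7.27, 7.77, 7.65 and 7.62 in WT. WT 2 was the lowest array and WT 1 lay above all TCL1-AT arrays but TCL1-AT 3. The difference was 0.18 (SE 0.12, 95% interval -0.09 to 0.44, limma adjusted p = 0.315), and the other Ddit3 probe gave -0.09 (SE 0.12, adjusted p = 0.61). The 95% interval of the second probe ran from -0.34 to 0.16. Without WT 2 the differences were 0.08 and -0.19, and the second was -0.04 without WT 3 and -0.06 without WT 5, none of them called.

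Trib3, a pseudokinase that is induced by ATF4 and restrains it, was dim but detected on all 10 arrays by its brightest probe. TCL1-AT arrays read 4.88, 4.68, 4.72, 4.58 and 4.58, and WT arrays read 4.58, 4.58, 4.46, 4.76 and 4.52. The ranges overlapped over most of their width, and the difference was 0.11 (SE 0.10, 95% interval -0.11 to 0.32, limma adjusted p = 0.47), or 0.06 without TCL1-AT 1. A second Trib3 probe was detected on 3 TCL1-AT and 0 WT arrays and the third on 0 and 1, and neither was tested.

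Chac1, an enzyme that breaks down glutathione and is a sensitive target of ATF4 and CHOP, was close to the detection limit. Its single probe was detected on 2 TCL1-AT and 3 WT arrays. It read 4.45, 4.22, 4.16, 4.48 and 4.46 in TCL1-AT and 4.46, 4.50, 4.16, 4.35 and 4.16 in WT, so both groups covered the same range. The difference was 0.03 (SE 0.11, 95% interval -0.21 to 0.27, limma adjusted p = 0.888), a bound that holds only as far as signals this dim can show a change.

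Asns, the enzyme that makes asparagine from aspartate and glutamine, was the member with the largest difference. Its brightest probe (ILMN_2643513) was detected on all 10 arrays and read 6.37, 6.10, 6.27, 6.02 and 6.54 in TCL1-AT and 4.45, 5.11, 5.30, 5.20 and 5.06 in WT. Every TCL1-AT array lay above every WT array, which held for 10.2% of named genes, and WT 1 stood below the other WT arrays. The group levels were 6.26 ± 0.21 and 5.02 ± 0.33 (SD, n = 5 each). The difference was 1.23 (SE 0.16, 95% interval 0.90 to 1.57, limma adjusted p = 6.58e-05), which is 2.35-fold on this scale. In the raw data the probe read 129 to 170 intensity units in TCL1-AT and 92.1 to 110 in WT, close to the arrays' median in WT, so the size depends on the background correction. Without background correction the log2 difference was 0.51 (adjusted p = 7.67e-05), and with raw signal as a covariate it was 1.51 (adjusted p = 0.000544).

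The other Asns probes were dim. One (ILMN_3006123) was detected on 5 TCL1-AT and 0 WT arrays, at 4.68, 4.54, 4.40, 4.40 and 4.54 against 4.11, 4.12, 4.18, 4.31 and 4.11. All TCL1-AT values again exceeded all WT values, as for 9.07% of tested probes (10.8% lay apart in the other direction). The fitted log2 difference was 0.35 (SE 0.10, limma adjusted p = 0.0158). It was 0.31 with raw signal as a covariate (adjusted p = 0.186) and 0.36 with median scaling (adjusted p = 0.0555). The fold was at least 1.16, against the higher of the probe's own WT signal and the lowest detected signal on each WT array, a bound that was not tested. This probe passed the detection filter only through the group where it is high, and is not taken as further support. The remaining Asns probe was not detected on any array and was not tested, so the rise of Asns rests on 1 probe.

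Psat1, which encodes the aminotransferase of the second step of serine synthesis, was lower in monocytes of TCL1-AT mice. Its single probe (ILMN_1221048) read 6.65, 6.70, 6.15, 6.70 and 5.93 in TCL1-AT and 6.95, 6.89, 7.08, 7.33 and 7.06 in WT. Every TCL1-AT array was below every WT array, which held for 12.5% of named genes, and TCL1-AT 3 and TCL1-AT 5 were the lowest. Levels were 6.43 ± 0.36 and 7.06 ± 0.17 (SD, n = 5 each), a difference of -0.64 (SE 0.16, 95% interval -0.98 to -0.30, limma adjusted p = 0.00893), or 1.56-fold lower. With raw signal as a covariate the difference was -0.61 with a wider SE (0.24) and no longer called (adjusted p = 0.112). Markers of proliferating cells fell with it: 8 of 8 tested were called lower, where 16.5% of all named genes were. Their array means were 5.72 to 6.23 in TCL1-AT and 6.57 to 7.12 in WT, and their part in the result was not tested.

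Phgdh, the enzyme of the first step of the same serine pathway, did not follow Psat1. It was detected on all 10 arrays at 4.80, 5.19, 5.46, 4.79 and 5.04 in TCL1-AT and 4.82, 4.35, 5.03, 4.67 and 5.02 in WT. TCL1-AT 2 and 3 were above the WT arrays, TCL1-AT 5 was level with the highest of them, and the other values overlapped. The difference was 0.28 (SE 0.16, 95% interval -0.06 to 0.62, limma adjusted p = 0.214), or 0.18 without TCL1-AT 3 and 0.17 without WT 2. The intervals of Phgdh and Psat1 do not overlap, but the difference between the genes was not tested.

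**Figure D2:**
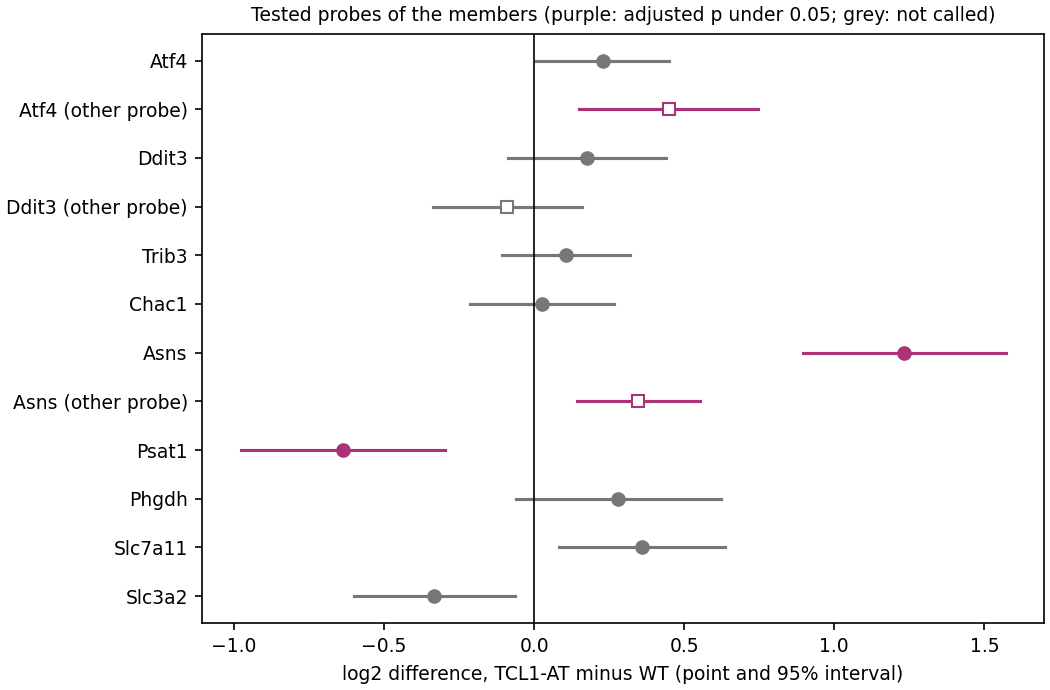
Log2 difference between TCL1-AT and WT (horizontal axis, point with its 95% interval) for the 12 tested member probes, with filled circles for the brightest probe of a gene and open squares for another probe. Asns lies farthest to the right at 1.23 and Psat1 farthest to the left at -0.64, and grey marks were not called.

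Slc7a11, the transport chain of the cystine-glutamate exchanger and a target of both ATF4 and the oxidative stress factor NRF2, missed the threshold. Its brightest probe was detected on 5 TCL1-AT and 4 WT arrays, at 4.88, 5.04, 5.22, 4.95 and 4.75 against 4.85, 4.26, 4.68, 4.73 and 4.54. WT 1 lay within the TCL1-AT range. The difference was 0.36 (SE 0.13, 95% interval 0.08 to 0.64, limma adjusted p = 0.0525). It passed without WT 1 (0.42, adjusted p = 0.0337) and without TCL1-AT 5 (0.42, adjusted p = 0.0441). It also passed with 1 probe per gene (0.36, adjusted p = 0.0499) and with the mean of a gene's probes (0.36, adjusted p = 0.0488). With raw signal as a covariate it fell to 0.25 (adjusted p = 0.414). The other 4 Slc7a11 probes were detected on at most 4 arrays each and were not tested.

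Slc3a2, the heavy chain (CD98) that carries the light chains of Slc7a11 and Slc7a5 to the membrane, also missed the threshold, with lower values in TCL1-AT. Its single probe read 4.26, 4.31, 4.62, 4.63 and 4.47 in TCL1-AT and 4.46, 4.88, 4.94, 4.98 and 4.69 in WT. It was detected on 3 TCL1-AT and 5 WT arrays, and WT 1 was the only WT array within the TCL1-AT range. The difference was -0.33 (SE 0.13, 95% interval -0.60 to -0.06, limma adjusted p = 0.0643). It passed without WT 1 (-0.42, adjusted p = 0.0218), without TCL1-AT 4 (-0.38, adjusted p = 0.0447) and with array weights (-0.34, adjusted p = 0.0469). With raw signal as a covariate it shrank to -0.17 (adjusted p = 0.575). Both chains of the cystine exchanger therefore had opposite signs, neither of them called.

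By Pearson correlation over the 10 arrays, the genes outside the list whose brightest probe was most like that of Asns were Mto1, Smchd1 and Paxbp1 (r = 0.98, 0.98 and 0.97). For Psat1 they were Mlec, Timm21 and 2410004B18Rik (r = 0.96 each). For Atf4 they were Enah, Msi2h and Snx8 (r = 0.93, 0.93 and 0.92). These values describe 10 points in 2 groups, so any gene that differs strongly between the groups correlates with Asns and Psat1.

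The pathway above ATF4 was described from a list of 16 eIF2alpha kinases, phosphatase subunits and regulators. Of these 13 were tested, 2 rose and 1 fell, with a median log2 difference of 0.15. Counts of this and the following lists, markers included, stand beside 12.7% of all named genes called higher and 16.5% called lower. Ppp1r15a, which encodes GADD34, the stress-induced subunit that leads a phosphatase to eIF2alpha and so reverses the signal, was higher on every TCL1-AT array (9.15, 9.41, 9.84, 9.34 and 10.04) than on any WT array (7.78, 7.75, 7.80, 7.52 and 7.43). The difference was 1.90 (SE 0.16, limma adjusted p = 1.79e-06), or 3.74-fold. Eif2ak2, the interferon-induced kinase PKR that senses double-stranded RNA, rose from 10.12 ± 0.17 to 10.82 ± 0.05 (SD, n = 5 each), a difference of 0.70 (SE 0.10, adjusted p = 0.000202). Eif2ak3, the kinase PERK of the endoplasmic reticulum, fell from 5.59 ± 0.10 to 4.88 ± 0.28, a difference of -0.71 (SE 0.13, adjusted p = 0.00131). The Eif2ak3 probe was dim, and its difference ranged from -0.83 to -0.25 over 21 alternative settings, called lower in each, so the size depends on the processing. Groups did not overlap for any of these 3 genes, which were named for the lowest p-values of the list. Among all named genes tested, 10.2% lay apart as higher and 12.5% as lower. Eif2b5, a subunit of the exchange factor that phosphorylated eIF2alpha blocks, differed by 0.25 and was not called (adjusted p = 0.0845). The kinase genes that sense lack of heme or of amino acids, Eif2ak1 and Eif2ak4, were not called; Eif2ak1 differed by 0.04 (adjusted p = 0.847) and Eif2ak4 had no tested probe.

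Of 15 partners and regulators of ATF4, all tested, 6 rose and 6 fell, beside 12.7% and 16.5% of all named genes, with a median of 0.03. Most were thus called but in both directions, on a list chosen with earlier results of these data known. Nfe2l2, which encodes NRF2, was 2.68-fold higher (log2 difference 1.42, SE 0.15, limma adjusted p = 1.33e-05), and Batf2, an interferon-induced factor of the AP-1 group, 3.31-fold higher (1.73, SE 0.15, adjusted p = 2.37e-06). Atf3, a stress factor induced downstream of ATF4, fell from 7.66 ± 0.14 to 6.51 ± 0.24 (SD, n = 5 each), a difference of -1.15 (SE 0.13, adjusted p = 1.72e-05). Batf3, a dendritic cell factor, fell by 1.33 on the log2 scale (SE 0.14, adjusted p = 1.67e-05). The C/EBP genes of the list, picked out after their values were seen, had no common direction. Cebpa fell by 1.03 on the log2 scale (SE 0.19, adjusted p = 0.00124) and Cebpd differed by 0.03 and was not called (adjusted p = 0.876). Cebpb differed by 0.55 (adjusted p = 0.00073, or 0.0556 and no call with median scaling) and Cebpg, whose product pairs with ATF4, by -0.66 (adjusted p = 0.000137, with 0.01 and no call for its other probe), while Atf5, which is controlled by translation as Atf4 is, differed by 0.64 (adjusted p = 0.00174).

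**Figure D3:**
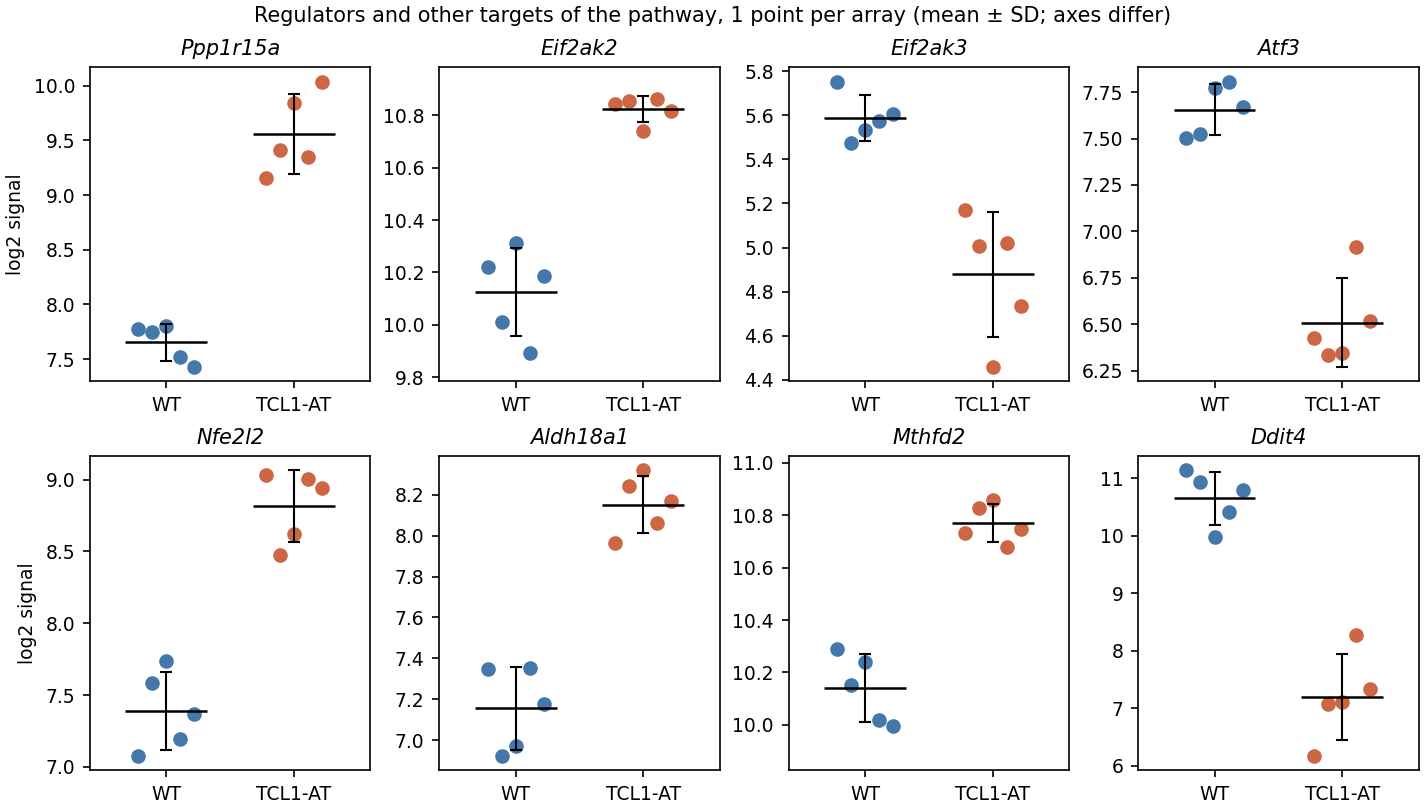
Normalized log2 signal of 8 regulators and other targets of the pathway (vertical axes, which differ between panels), with 1 point per array and a bar and whiskers for the mean and SD of 5 arrays. TCL1-AT arrays lie above WT arrays for Ppp1r15a, Eif2ak2, Nfe2l2, Aldh18a1 and Mthfd2 and below them for Eif2ak3, Atf3 and Ddit4. Among all named genes tested, 10.2% lay apart as higher and 12.5% as lower.

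Of 26 other known ATF4 targets, 14 were tested, 2 rose and 1 fell, with a median of 0.13, beside the 12.7% and 16.5% of all named genes. Aldh18a1, which opens proline synthesis from glutamate, rose from 7.16 ± 0.20 to 8.15 ± 0.14 (SD, n = 5 each), a difference of 1.00 (SE 0.12, limma adjusted p = 3.42e-05). Mthfd2, a mitochondrial enzyme of the folate cycle, rose by 0.63 (SE 0.10, adjusted p = 0.000302), and its other probe by 0.39, also called. Ddit4, an inhibitor of the growth kinase mTORC1, fell by 3.46 (SE 0.31, adjusted p = 3.2e-06), from 10.65 ± 0.46 to 7.20 ± 0.75. Xpot, an exporter of transfer RNA, differed by -0.21 and was not called (adjusted p = 0.129). The 3 called targets thus went in both directions, as Asns and Psat1 did.

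Of 18 serine, glycine and one-carbon enzymes, 10 were tested, 1 rose and 1 fell, again near the shares of all named genes, with a median of 0.11. The rise was that of Mthfd2, which is on both lists. The fall was in Dld, a subunit shared by the glycine cleavage system and the pyruvate dehydrogenase complex, at -0.72 (SE 0.19, limma adjusted p = 0.0132), and the call was lost with raw signal as a covariate (-0.31, adjusted p = 0.432) and with no filter on dim probes (adjusted p = 0.0546). Srr, which makes D-serine, differed by 0.39 and Gnmt, a glycine methyltransferase, by -0.36, and neither was called (adjusted p = 0.103 and 0.128). Another Gnmt probe was called in the opposite direction, at 0.54. The counts were 2 higher without TCL1-AT 4 or without TCL1-AT 5 and 2 lower without WT 3.

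Among other enzymes of amino acid synthesis and breakdown, 4 of 16 tested rose and 4 fell, with 29 listed and a median of -0.12. Ass1, which joins citrulline and aspartate on the way to arginine, rose from 7.67 ± 0.22 to 8.98 ± 0.10 (SD, n = 5 each), a 2.47-fold difference (1.30, SE 0.12, limma adjusted p = 2.69e-06). The largest difference of the list, 5.08, was that of Il4i1, whose product is a secreted oxidase of aromatic amino acids (SE 0.17, adjusted p = 2.68e-10). Bckdha, a subunit of the complex that breaks down branched-chain amino acids, fell by 0.63 on the log2 scale (SE 0.11, adjusted p = 0.000897).

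Other amino acid transporters of the plasma membrane were dim, and 16 of 26 listed were tested. Of these 2 rose and 0 fell by limma's adjusted p (3 higher and 1 lower at an unadjusted p under 0.05), with a median of 0.11. Both rises were in genes detected on all 5 TCL1-AT arrays but 1 WT array, which passed the detection filter through the group where they are high, so the count is no support for a rise of the list and the sizes are imprecise. Slc38a5, a carrier of glutamine, serine and other neutral amino acids, read 4.41 to 4.97 in TCL1-AT and 4.11 to 4.40 in WT, a fitted difference of 0.55 (SE 0.12, limma adjusted p = 0.0033), a call lost with raw signal as a covariate (0.44, adjusted p = 0.111). Slc43a1, a carrier of branched-chain amino acids, read 4.76 to 5.27 and 4.24 to 4.66, a fitted difference of 0.52 (SE 0.13, adjusted p = 0.00823). Slc6a9, a glycine carrier, differed by 0.34 and Slc7a8, another light chain partner of Slc3a2, by -0.27, and neither was called (adjusted p = 0.087 and 0.0919). Without WT 1 the call of Slc6a9 passed (0.44, adjusted p = 0.0247), and without TCL1-AT 4 or WT 3 that of Slc7a8 passed as lower. Slc6a9 was also detected on 5 TCL1-AT arrays and 1 WT array, so it passed the filter through the group where it is high. Neither its call nor the count of 3 higher at an unadjusted p is therefore taken as support.

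Carriers of amino acids and peptides in the lysosome had 8 tested genes of 10 listed, of which 4 rose and 0 fell by limma's adjusted p (4 higher and 1 lower at an unadjusted p under 0.05), with a median of 0.29. Slc15a3, a histidine and peptide transporter, rose by 0.68 (SE 0.11, adjusted p = 0.000534). Slc66a1, Slc15a4 and the cystine exporter gene Ctns differed by 0.30, 0.37 and 0.30 (adjusted p = 0.0297, 0.037 and 0.0386). These 3 calls were lost with median scaling (adjusted p = 0.316, 0.181 and 0.36), which left 1 rise. They were also lost with raw signal as a covariate (0.32, 0.38 and 0.26, adjusted p = 0.174, 0.195 and 0.294), which left 1 rise too. The number of rises was 2 without TCL1-AT 1, 2, 4 or 5 or without WT 4 or 5. Other probes of Slc15a4 and Ctns gave -0.22 and 0.01 and were not called.

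Genes of glutathione synthesis and breakdown, the use of the cystine that Slc7a11 imports, had 8 of 14 listed genes tested, of which 1 rose and 2 fell, with a median of -0.19. Ggct, an enzyme of glutathione breakdown, rose by 0.67 (SE 0.10, limma adjusted p = 0.000226), with 2 of its 3 other tested probes also called higher. Gss, glutathione synthetase, fell by 0.85 (SE 0.19, adjusted p = 0.00551), and Gpx4, a lipid peroxidase that uses glutathione, by 0.32 (SE 0.10, adjusted p = 0.0238). Of the other tested probes, 2 of 3 for Gss and 1 of 2 for Gpx4 were also called lower. With raw signal as a covariate the differences were -0.85 and -0.32 with wider SEs (0.29 and 0.14). Both falls then lost their call (adjusted p = 0.0774 and 0.171). The call of Gpx4 was also lost without any 1 of TCL1-AT 1, TCL1-AT 3, WT 1 or WT 5, which left 1 fall. Gclm, the modifier subunit of the first enzyme of glutathione synthesis, differed by -0.34 and was not called (adjusted p = 0.0742).

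Of 17 other genes of the unfolded protein response, from its ATF6 and IRE1 branches, 16 were tested, 2 rose and 4 fell, with a median of -0.01. Dnajb9, a chaperone partner induced through IRE1, fell by 0.82 (SE 0.14, limma adjusted p = 0.000792), and so did its other probe. Ern1, which encodes IRE1 alpha, fell by 0.78 (SE 0.17, adjusted p = 0.00344), but its other probe gave 0.25 and was not called, and the mean of both was not called (-0.27, adjusted p = 0.077). Calr, a calcium-binding chaperone, rose by 0.74 (SE 0.16, adjusted p = 0.00397) and Creld2 by 0.55 (SE 0.13, adjusted p = 0.00831). Creld2 lost its call with raw signal as a covariate (0.60, SE 0.20, adjusted p = 0.0704). Without WT 3 the list had 5 rises, and with median scaling or raw signal as a covariate it had 2 falls.

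**Figure D4:**
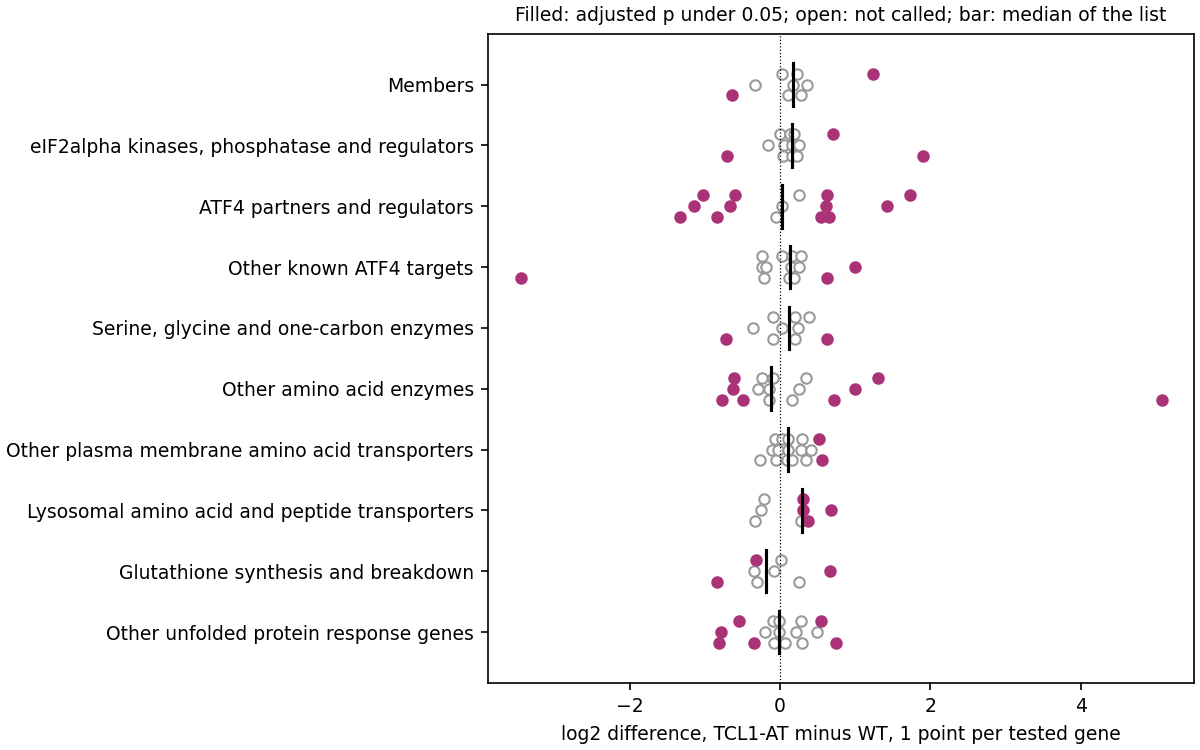
Log2 difference between TCL1-AT and WT (horizontal axis) of each tested gene of the members and of 9 pathway lists (rows), with filled points for called genes, open points for genes not called and a bar at the median of each list. Medians lie between -0.19 and 0.29, and calls fall on both sides of 0 in most lists.

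Markers of other cell types were read beside these results. Of 4 tested B cell and CLL markers, Cd79b (0.60) and Fcrla (0.93) rose, Cd22 (-0.21) and Ms4a1 (-0.02) were not called, and 5 further markers (Pax5, Ebf1, Blk, Cr2 and Fcer2a) had probes that did not pass the detection filter, with array means of 5.91 to 6.71 in TCL1-AT and 5.73 to 5.97 in WT. The highest mean was on TCL1-AT 3, where Asns (6.27) was close to its group mean. Psat1 (6.15) was low there, though lower still on TCL1-AT 5 (5.93). Slc7a11 (5.22), Phgdh (5.46) and Ddit3 (8.01) were at their highest on TCL1-AT 3. Without TCL1-AT 3, Psat1 differed by -0.57 (limma adjusted p = 0.0257) and Slc7a11 by 0.30 (adjusted p = 0.129). Of 2 tested plasma cell markers Mzb1 rose (1.45) and Irf4 fell (-2.07), while 5 with probes (Jchain, Sdc1, Tnfrsf17, Prdm1 and Pou2af1) did not pass the filter. Mzb1 read 8.09 on TCL1-AT 3 and 4.99 to 6.22 on the other TCL1-AT arrays. Of 5 tested T cell markers 3 fell and 0 rose (4 lower and 0 higher at an unadjusted p under 0.05 in limma), with means of 6.08 to 6.36 against 6.91 to 7.26. Cd8b1, not called by its brightest probe (-0.23), had 2 other tested probes, both called lower (-2.48 and -1.01). Of 4 tested erythroid markers, the globin genes Hbb-b1 (2.29) and Hba-a1 (2.14) rose, and Klf1 (0.20) and Epor (0.21) were not called. Array means over the 4 were 7.15 to 8.06 against 5.80 to 6.99. Neutrophil markers gave means of 8.90 to 9.46 against 8.84 to 9.40, with 1 of 10, Mmp8, lower. Mmp8 was detected on 0 TCL1-AT and 5 WT arrays, so it passed the filter only through the group where it is high. Of 3 tested NK cell markers Prf1 rose (1.48), and array means were 7.16 to 7.86 against 6.91 to 7.20. Of 6 tested dendritic cell markers Zbtb46 rose (1.57) and Cd209a and Itgae fell (-0.91 and -0.73), with means of 4.81 to 5.26 against 5.00 to 5.20, beside the fall of Batf3. Zbtb46 was detected on 5 TCL1-AT arrays and 1 WT array, so it too passed the filter only through the group where it is high. Of 8 tested splenic macrophage markers Spic rose (1.66) and C1qb and Vcam1 fell (-0.57 and -0.54), with means of 6.31 to 6.52 against 6.33 to 6.44. The part of these cells in the differences of Asns, Psat1 and the pathway genes was not tested, beyond the values given.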

How the data were processed

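RNA of sorted splenic monocytes was measured on 10 arrays, 5 per group. The deposited non-normalized table gives intensity (as signal) and, beside it, detection p-values, per the file headers. The deposited series matrix gives log2 values whose making is not given in the sources used here; they differed by at most 0.000428 from neqc (normexp with offset 16, quantile, log2) run on the intensity table, with a median of 4.30 on every array. No pair of arrays held identical values. Of the probes, 35784 had 1 symbol, 0 had several and 10453 had none; symbols were updated through RefSeq (GRCm38.p6) by Entrez identifier for 28620 and by accession for 2637. The log2 values were fitted with limma 3.58.1 in R 4.3.3 (lmFit, eBayes, 2-sided). The fit was tested on simulated data. For arrays, their number limits the precision. Array-wide measures used exact permutation over 252 splits. Named genes are all members, the 4 lowest p-values of each pathway list, and 3 genes most like a member; Cebpa, Cebpb, Cebpd, Cebpg, Atf5, Eif2ak1 and Eif2ak4 were added after their values were seen. Members and lists were chosen with earlier results of these data known. No genome was given, and coordinates are those of the RefSeq promoter table.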

Additional observations from a re-analysis of the deposited data

Results flagged for a closer look

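In 8 of 92 groups of 5 arrays, 1 array stood apart by Dixon's ratio of its gap to the group's range, above the critical value of 0.71; chance flags about 1 group in 20. Asns on WT 1 read 4.45 against 5.06 to 5.30 on the other WT arrays (ratio 0.716), and without WT 1 its log2 difference was 1.09. Gnmt on WT 3 read 5.66 against 6.18 to 6.30 (0.806). Slc43a1 on TCL1-AT 3 read 5.27 against 4.76 to 4.80 (0.92), and on WT 5 it read 4.66 against 4.24 to 4.35 (0.745). Slc6a9 on WT 1 read 4.72 against 4.17 to 4.29 (0.792). Slc7a8 on TCL1-AT 4 read 6.26 against 5.86 to 5.97 (0.725). Slc15a4 on WT 2 read 9.29 against 9.68 to 9.78 (0.803). Gss on TCL1-AT 4 read 6.86 against 5.90 to 6.08 (0.818).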

How the results depend on the processing

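The members, the counts of the pathway lists and of all probes, and the named list genes were recomputed under 21 alternatives, 10 of which left out 1 array. Cebpa, Cebpd, Eif2ak1 and the cell type markers other than Cebpb were not recomputed. Asns was called higher under all 20 that tested it (0.51 to 1.51), and Psat1 lower under 20 of 21. Of 239 repeats over 12 member probes, 212 kept direction and side of the threshold, 13 lost the call, 9 gained one and 5 changed sign; of 773 over 37 list genes, 721, 40, 12 and 0. The members called higher, 1 in the main fit, were 2 with no background correction, 0 with the stricter filter (3 members tested, without Asns), 2 with 1 probe per gene, 3 with the mean of a gene's probes, and 1 to 2 with an array left out. The members called lower, 1 in the main fit, were 2 with array weights, 0 with raw background as a covariate, and 1 to 2 with an array left out. Their median stayed between 0.08 and 0.24. Of all probes, 2458 rose and 3005 fell; median scaling gave 1419 rises and 2218 falls, and the covariate 1124 and 1373, and leaving out an array 1949 to 2701 and 2423 to 3054. Chac1 changed sign with the covariate (-0.15) and without TCL1-AT 4 (-0.0054), TCL1-AT 5 (-0.0001), WT 3 (-0.0155) or WT 5 (-0.0145), never called, and ranged from -0.0155 to 0.0758 with an array left out. Replicate numbers did not pair the arrays (same-number correlations of -0.183 to 0.185). The replicate block gave 1 member higher and 1 lower, a median of 0.18, 2035 rises and 2567 falls over all probes, Asns at 1.23 (adjusted p = 0.000666) and Psat1 at -0.64 (0.0151); it ended the calls of the dim Asns probe (0.055), the second Atf4 probe (0.0635), Slc66a1 (0.0679), Ctns (0.0876) and Gpx4 (0.0613). List counts also moved over 1.5 times in other settings. With the mean of a gene's probes, the eIF2alpha list had 4 higher and 2 lower and the lysosomal carriers 2 higher. With the covariate, other ATF4 targets had 2 lower, plasma membrane transporters 1 higher, unfolded protein response 2 lower and lysosomal carriers 1 higher. The covariate also left the serine and glutathione lists with 0 lower. No filter on dim probes and the stricter filter gave the serine list 0 lower too. Median scaling gave unfolded protein response 2 lower and lysosomal carriers 1 higher. The stricter filter gave amino acid enzymes 2 lower and transporters 0 higher. Array weights gave the serine list 2 higher, and transporters and lysosomal carriers 1 lower each. An intensity trend in eBayes gave the serine list 2 higher. The replicate block gave lysosomal carriers 2 higher and glutathione 1 lower. The cause of these changes was not tested. Signals near the detection limit (Chac1, Trib3, Slc3a2, Slc7a11 and most transporters) limit what could be seen.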
